A study of Mus musculus with 9 samples.

Results

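Gene expression in SV5-NN4, a stable NIH 3T3 clone that carries SV40 large T antigen (an oncoprotein of simian virus 40) together with wild-type Nras, was compared with that in the wild-type NIH 3T3 fibroblasts, on Affymetrix mouse arrays with 3 arrays per line. The comparison used 6 of the 9 arrays of the series. The other 3 held SV5, a stable NIH 3T3 clone with large T antigen and no added Nras, and served for the estimate of the spread and to place SV5 between the lines. All lines were kept in medium with calf serum, and total RNA extracted with Trizol was turned into biotin-labelled cRNA by the one-cycle procedure. Each genotype is 1 clone, so T antigen, Nras and clonal origin cannot be told apart in any difference from NIH 3T3. Levels are log2(intensity + 1), and a difference is the SV5-NN4 level minus the NIH 3T3 level, averaged over the 3 pairs of arrays with equal replicate numbers. Of 22690 probe sets, 20393 carried exactly 1 gene symbol; with Affymetrix controls left out, the brightest probe set of each gene stood for 12393 genes.

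NIH 3T3 is a mouse embryo fibroblast line that stops dividing on contact and is a standard recipient for transforming genes. Large T antigen binds the retinoblastoma proteins, which releases E2F transcription factors that drive the genes of DNA synthesis, and it also binds p53. N-Ras is a small GTPase that passes growth factor signals to the ERK kinases. Fibroblasts make and remodel collagen-rich matrix and attach to it and to one another through cadherins, integrins and other surface proteins.

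The arrays had median intensities of 56.2 to 62.4 and upper quartiles of 165.2 to 239.7. Probe sets for bacterial transcripts that serve as controls read 3.18 to 4.25 on the log2 scale, and a level in that range was taken as not distinguishable from no signal. Where all SV5-NN4 arrays lay there, a fall is given as a lower bound, the NIH 3T3 mean against the top of the range; the fitted difference beside it is no measured size. The median probe set read 5.93. RNA integrity was read from the log2 ratio between probe sets at the 3' and 5' ends of a transcript. It was 4.25, 4.43 and 5.06 for Actb in NIH 3T3 replicates 1 to 3 and 4.07, 4.63 and 3.66 in those of SV5-NN4. For Gapdh it was 2.65, 2.99 and 5.21 against 2.66, 3.52 and 3.05. NIH 3T3 replicate 3 stood apart for Gapdh, and the lines overlapped for both genes. The third pair differed most, by -1.40 for Actb and -2.16 for Gapdh, and 3 pairs are too few for a permutation test to pass a threshold. The part of RNA integrity in the results was not tested beyond leaving out each array. The labels do not say whether replicates were separate cultures; p-values therefore describe array-to-array spread, part of which may be technical.

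Nras was examined first, as the gene added to the clone. Its brightest probe set read 7.42, 7.10 and 7.85 in NIH 3T3 and 8.23, 8.03 and 8.45 in SV5-NN4. All SV5-NN4 arrays lay above all NIH 3T3 arrays, but the difference of 0.78 (SE 0.14, 95% interval 0.44 to 1.11) did not pass the threshold (limma, adjusted p = 0.0516). A dimmer probe set rose by 1.02 (adjusted p = 0.0456), and the remaining one differed by 0.24 (adjusted p = 0.464). In SV5, which has no added Nras, the brightest probe set already read 8.43, 7.76 and 8.34, and 2 of these arrays lie inside the range of the SV5-NN4 arrays. Nras therefore gives no check of the added gene in these arrays, and large T antigen was not analysed here.

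Between SV5-NN4 and NIH 3T3, 375 of 22690 probe sets (1.65%) were called at an adjusted p under 0.05, of which 258 were higher (1.14%) and 117 lower (0.516%). By gene, 243 of 12393 were called (1.96%), with 158 higher (1.27%) and 85 lower (0.686%). The rises were more numerous and the falls larger: 25 genes fell more than 4-fold, whereas 3 rose that much, and past 2-fold the numbers were 64 and 104. The 3 pairs had the same sign in all 243, against 18.0% of all genes higher in all 3 pairs and 19.6% lower. The groups did not overlap in 177, against 881 of all genes (7.11%). The calls were made on these same values, so neither count is further support for them. The median difference over all genes was -0.03. The number of calls rested on the arrays taken: it was 222 without NIH 3T3 replicate 3, 1239 without NIH 3T3 replicate 1, 15 without NIH 3T3 replicate 2 and 13 without SV5-NN4 replicate 2. Among the 54 called genes named here, Cdh11, Cd24a, Tuba4a, Thy1, Crtap and Mycn kept the call whichever array was left out, and 48 lost it without SV5-NN4 replicate 2, 47 without NIH 3T3 replicate 2, 44 without SV5-NN4 replicate 3, 34 without SV5-NN4 replicate 1 and 26 without NIH 3T3 replicate 3. All 375 differences kept their sign each time. Without an SV5 array the difference itself is unchanged, so there the sign was fixed in advance. For the other arrays it was largely set too, since called genes had the same sign in all 3 pairs. The calls also rest on the pairing of arrays: with no replicate block in the model 18 probe sets were called, 2 higher and 16 lower and all among the 375. Of the 54 named genes 44 then lost the call, Crtap among them.

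**Figure D1:**
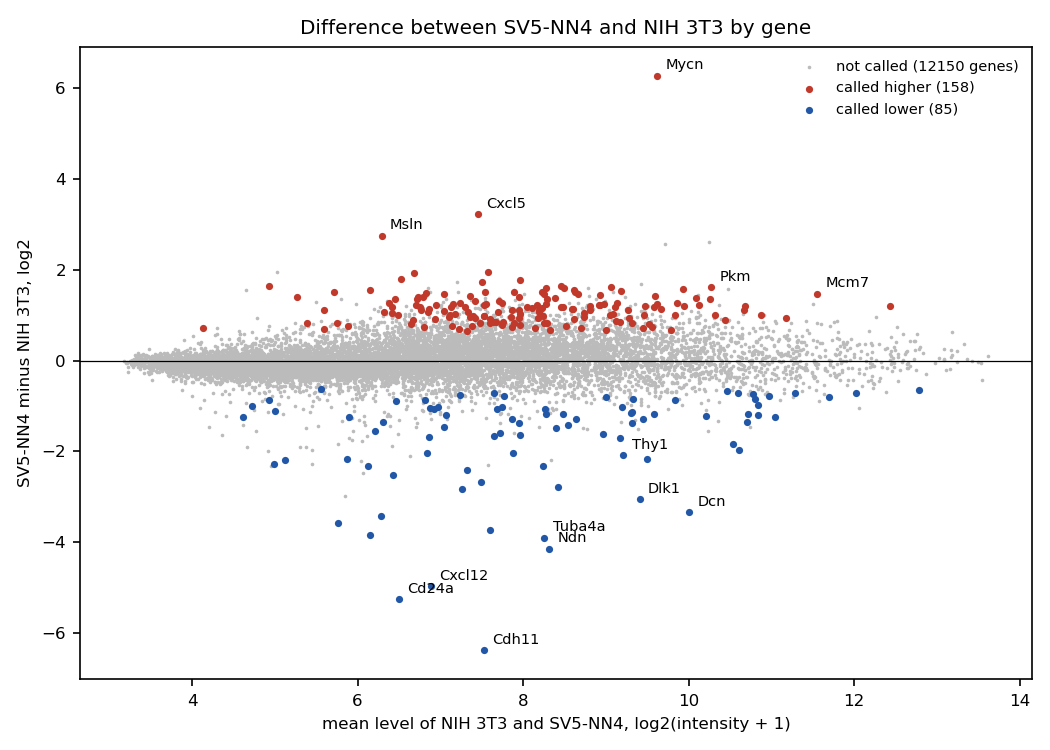
Each point is 1 of 12393 genes; the horizontal axis is its mean level in the 2 lines as log2(intensity + 1), and the vertical axis the log2 difference, SV5-NN4 minus NIH 3T3. Red points mark the 158 genes called higher and blue points the 85 called lower; the blue points reach -6.38 at Cdh11, while of the red points only Mycn (6.28), Cxcl5 (3.23) and Msln (2.76) lie above 2.

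Surface and adhesion molecules were among the largest falls. Cdh11, the cadherin that joins mesenchymal cells to each other, read 11.32, 11.10 and 9.72 in NIH 3T3 and 4.42, 4.61 and 3.95 in SV5-NN4. The gap was wide on every pair, and the SV5-NN4 arrays sat at or just above the controls. Cdh11 fell by 6.38 (83.5-fold, SE 0.39, adjusted p = 0.00178), the largest difference in either direction among all genes; 1 of the 3 SV5-NN4 arrays lay inside the control range. Cdh11 was the only member called among 20 measured cadherins and catenins (5%, against 0.686% of all genes called lower). The list's median was -0.07 (0.04 over the brighter probe sets). The classical cadherin Cdh2 differed by 0.22 (adjusted p = 0.704) and Cdh1 by -0.04 (adjusted p = 0.903).

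Cd24a encodes a small, heavily glycosylated surface protein anchored by a lipid. It read 9.09, 8.89 and 9.41 in NIH 3T3 and 3.69, 3.91 and 4.02 in SV5-NN4, where all 3 arrays lay within the range of the controls. It was at least 29.5-fold lower (fitted difference -5.26, SE 0.27, adjusted p = 0.00178). Of its other probe sets 1 was called, at least 18.1-fold lower, and the other differed by -2.15. Thy1, another lipid-anchored glycoprotein and a classical fibroblast surface marker, read 10.20, 10.30 and 10.27 in NIH 3T3 against 8.07, 8.24 and 8.20 in SV5-NN4. The replicates nearly coincided in both lines, and Thy1 fell by 2.09 (4.25-fold, SE 0.11, adjusted p = 0.00178). Cd302, a C-type lectin receptor, read 7.36, 8.63 and 8.20 against 5.05, 3.91 and 3.72. It fell by 3.84 (SE 0.44, adjusted p = 0.0162), 2 of the SV5-NN4 arrays lying inside the control range, with the smallest gap in replicate 1, and the call was lost without NIH 3T3 replicate 2 or SV5-NN4 replicate 2 or 3 (adjusted p up to 0.129). These were the 3 called members, all lower, of 30 measured integrins and other adhesion receptors (10%, against 0.686% of all genes). The list's median was -0.20. No integrin subunit on the list was called; Itgb5 differed by -1.06 (adjusted p = 0.0838) and Itgb1 by -0.25 (adjusted p = 0.788).

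Ank3, which encodes ankyrin-G, an adaptor that ties membrane proteins to the spectrin cytoskeleton, read 5.63, 8.08 and 8.95 in NIH 3T3 and 3.97, 4.04 and 3.91 in SV5-NN4. It was at least 9.91-fold lower (fitted difference -3.58, SE 0.55, adjusted p = 0.0364). The NIH 3T3 arrays spanned more than 3 log2 units, replicate 1 being the lowest, while the SV5-NN4 arrays were nearly equal and within the range of the controls. Its other probe sets differed by -1.29 and -0.40 and were not called. Scara3, a scavenger receptor family member, read 8.01, 9.27 and 8.76 against 5.53, 6.08 and 5.95, with no overlap. It fell by 2.83 (SE 0.27, adjusted p = 0.0101). Both calls were lost without replicate 2 of NIH 3T3 or replicate 2 or 3 of SV5-NN4, among others (adjusted p up to 0.216 for Ank3 and 0.0951 for Scara3).

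**Figure D2:**
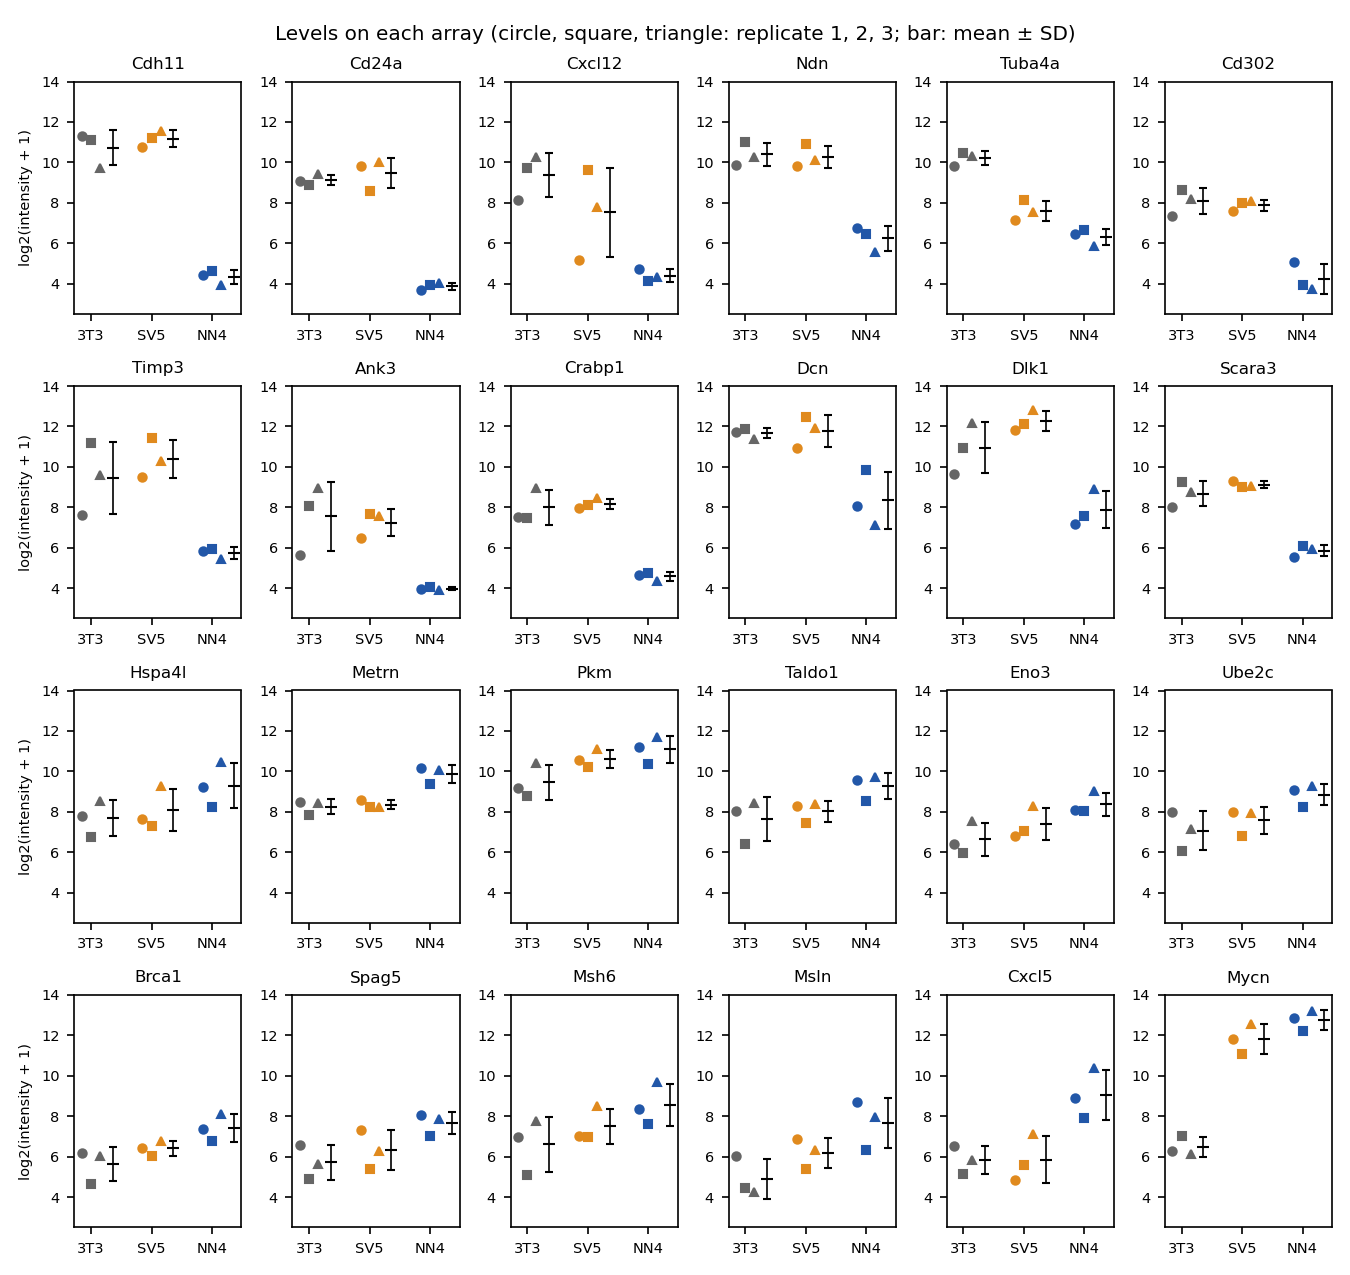
Levels of the 12 genes with the largest falls and the 12 with the largest rises among those named, as log2(intensity + 1) on the vertical axis, for NIH 3T3 (grey), SV5 (orange) and SV5-NN4 (blue); each symbol is 1 array, with circles, squares and triangles for replicates 1, 2 and 3, and the bar beside each line is the mean ± SD of its 3 arrays. For Cdh11, Cd24a, Ndn, Cd302, Crabp1 and Scara3 the SV5 arrays sit with NIH 3T3, for Tuba4a they sit between, and for Mycn they sit near SV5-NN4.

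Most genes of the extracellular matrix lay below 0, and few were called. Below 0 were 30 of 39 matrix glycoproteins, 10 of 11 small leucine-rich proteoglycans and 18 of 25 collagen chains, against 55.1% of all genes. On these lists 2, 1 and 1 members were called, all lower, against 0.686% of all genes. Dcn, the gene the study's title names, encodes decorin, a proteoglycan that coats collagen fibrils. It read 11.72, 11.90 and 11.40 in NIH 3T3 and 8.05, 9.85 and 7.11 in SV5-NN4. The groups did not overlap, and the SV5-NN4 arrays spread more widely than those of NIH 3T3. Dcn fell by 3.33 (10.1-fold, SE 0.46, 95% interval -4.42 to -2.24, adjusted p = 0.0275). The median of the 11 small leucine-rich proteoglycans was -0.29. The related fibroblast products lumican (Lum) and asporin (Aspn) differed by -1.90 (adjusted p = 0.118) and -1.74 (adjusted p = 0.133).

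Postn encodes periostin, a matricellular protein of connective tissue, and Mgp the matrix Gla protein, an inhibitor of calcification. Postn read 10.01, 8.51 and 10.91 in NIH 3T3 and 5.88, 7.15 and 8.06 in SV5-NN4, and fell by 2.78 (SE 0.45, adjusted p = 0.0414). Mgp read 8.74, 8.60 and 9.13 against 6.52, 6.13 and 5.80, and fell by 2.67 (SE 0.29, adjusted p = 0.0149). Neither gene's arrays overlapped, although the pair difference of Postn ran from -4.13 in replicate 1 to -1.37 in replicate 2. They were the 2 called members of 39 matrix glycoproteins, whose median was -0.28 and of which 16 were lower in all 3 pairs and 0 higher in all 3, against 19.6% and 18.0% of all genes. Fibronectin (Fn1), at -0.30 (adjusted p = 0.596), and Sparc, at 0.23 (adjusted p = 0.589), were not called.

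Collagen VI forms beaded microfibrils around cells. Its chain Col6a3 read 8.21, 7.92 and 9.77 in NIH 3T3 and 7.34, 6.63 and 7.81 in SV5-NN4, and fell by 1.37 (SE 0.25, adjusted p = 0.0488). The partner chains Col6a2 and Col6a1 differed by -1.46 (adjusted p = 0.0574) and -0.80 (adjusted p = 0.186). The fibrillar chains had smaller differences, with -0.47 for Col1a1, -0.16 for Col1a2 and -0.53 for Col3a1, none called, and Col6a3 was the 1 called member of 25 collagen chains with a median of -0.16. Crtap, the cartilage-associated protein of the complex that hydroxylates prolines of collagen, read 8.51, 8.93 and 9.26 against 6.45, 7.30 and 6.82. It fell by 2.04 (4.12-fold, SE 0.16, adjusted p = 0.00572) in all 3 pairs. Crtap was the 1 called member of 21 collagen processing enzymes (4.76%, against 0.686% of all genes called lower), whose median was -0.08. With single arrays left out, the calls of Dcn, Postn, Mgp and Col6a3 were lost, each at least without replicate 2 of NIH 3T3 and of SV5-NN4, with adjusted p up to 0.253. That of Crtap was kept, but it was lost in limma fits with no replicate block (adjusted p = 0.12) and on the arrays of the 2 lines alone (adjusted p = 0.0574).

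Both matrix proteases and inhibitors of matrix proteases were among the called falls. Timp3, a matrix-bound inhibitor of metalloproteinases, read 7.63, 11.17 and 9.58 in NIH 3T3 and 5.86, 5.93 and 5.42 in SV5-NN4. It fell by 3.72 (13.2-fold, SE 0.55, limma adjusted p = 0.0316), and a further probe set fell by 3.60 (adjusted p = 0.0122). The remaining probe sets differed by -1.77 and -0.66 and were not called. The NIH 3T3 arrays differed widely among themselves at the brightest probe set. They differed less at the other called one, where they read 8.35, 9.10 and 9.63. Reck, a membrane-anchored inhibitor of the same proteases, read 8.32, 9.09 and 8.93 against 6.81, 7.52 and 7.11. It fell by 1.64 (SE 0.12, adjusted p = 0.00402), with pair differences of -1.82 to -1.52.

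Of the proteases themselves, the collagen-degrading cathepsin Ctsk fell by 1.46, from 7.87, 7.70 and 7.75 to 6.64, 6.34 and 5.97 (SE 0.22, adjusted p = 0.0364). The membrane metalloproteinase Mmp14 fell by 0.87, from 9.86, 10.19 and 10.75 to 8.99, 9.68 and 9.52 (SE 0.16, adjusted p = 0.0467), while its other probe set differed by 0.13. The groups were apart in both cases. Among 33 measured proteases and inhibitors these 4 were called (12.1%, against 0.686% of all genes called lower), 2 inhibitors and 2 proteases. The median was -0.20. The inhibitors Timp1 and Timp2 differed by -0.08 (adjusted p = 0.949) and 0.45 (adjusted p = 0.247), and Mmp2, the gelatinase that Mmp14 activates, by -0.72 (adjusted p = 0.186). The call of Reck was lost only without SV5-NN4 replicate 2 (adjusted p = 0.0512), and those of Timp3, Ctsk and Mmp14 at least without NIH 3T3 replicate 2 or 3 or SV5-NN4 replicate 2 or 3 (adjusted p up to 0.253).

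Among chemokines and cytokines 1 gene was called lower and 1 higher. Cxcl12, the stromal chemokine that holds haematopoietic cells in the marrow, read 8.13, 9.73 and 10.26 in NIH 3T3 and 4.75, 4.12 and 4.34 in SV5-NN4. These SV5-NN4 levels were close to the controls, 1 array lying inside their range. It fell by 4.97 (31.4-fold, SE 0.81, adjusted p = 0.0415), and its other probe set differed by -3.34 (adjusted p = 0.0909). Cxcl5, a chemokine that attracts neutrophils, moved the other way, from 6.51, 5.14 and 5.86 to 8.90, 7.92 and 10.37. Each SV5-NN4 array lay above every NIH 3T3 array, and Cxcl5 rose by 3.23 (9.37-fold, SE 0.52, adjusted p = 0.0412). These were the only calls among 30 chemokines and cytokines, 3.33% lower and 3.33% higher, against 0.686% and 1.27% of all genes. The list's median was -0.13. Ccl2, the main monocyte chemokine of fibroblasts, differed by 0.25 (adjusted p = 0.881) and Il6 by -0.67 (adjusted p = 0.567). The Cxcl12 call was lost without NIH 3T3 replicate 2 or 3, SV5 replicate 3, or SV5-NN4 replicate 2 or 3 (adjusted p up to 0.232), and that of Cxcl5 without 7 of the 9 arrays (adjusted p up to 0.229).

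Receptors for growth factors were lower where they were called. Ghr, the growth hormone receptor, read 11.54, 11.22 and 11.99 in NIH 3T3 and 9.27, 9.74 and 9.86 in SV5-NN4, and fell by 1.96 (SE 0.28, adjusted p = 0.0295). Pdgfra, the receptor for platelet-derived growth factor on mesenchymal cells, read 11.38, 10.94 and 11.99 against 10.06, 9.90 and 10.75, and fell by 1.20 (SE 0.15, adjusted p = 0.0217), while a dimmer probe set differed by -0.27. Ror2, a receptor for Wnt5a, was near the low end of the scale and fell by 0.87 (adjusted p = 0.0464). All 3 had separate groups. Of the list of 31 receptors 9.68% were called lower, against 0.686% of all genes, and no member was called higher. The median was -0.23. The related receptor Pdgfrb differed by -0.79 (adjusted p = 0.0799) and Fgfr1 by -0.85 (adjusted p = 0.09). Grem1, a secreted antagonist of bone morphogenetic proteins, fell by 1.0 (adjusted p = 0.0445), from 5.61, 5.30 and 4.75 to 4.13, 4.45 and 4.09. Because 2 of its SV5-NN4 arrays lay inside the control range, the size of this fall is uncertain. Grem1 was the 1 called member of 39 genes of TGF-beta and BMP signalling (2.56%, against 0.686% of all genes called lower), whose median was -0.08. These 4 calls were lost without NIH 3T3 replicate 2 or 3 or any SV5-NN4 array (adjusted p up to 0.229). Those of Ror2 and Grem1 were also lost without any SV5 array.

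Among the falls were 4 members of the list of imprinted genes, a class expressed from 1 parental copy. Whether each of them is so expressed in these cells was not tested. Ndn, which encodes necdin, a growth suppressor of the Prader-Willi region, read 9.87, 11.03 and 10.27 in NIH 3T3 and 6.73, 6.46 and 5.55 in SV5-NN4. It fell by 4.14 (17.7-fold, SE 0.31, adjusted p = 0.00463). Of its 7 other probe sets, 4 were called lower (adjusted p = 0.00178 for each). In 3 of these all SV5-NN4 arrays lay inside the control range, at least 12.8-fold, 31.0-fold and 35.4-fold lower, and in the other, which fell by 5.41, 2 arrays did. The 3 that were dim in NIH 3T3 differed by -0.32 to 0.13. Dlk1, a membrane protein of the Notch ligand family that keeps precursor cells undifferentiated, read 9.66, 10.95 and 12.19 against 7.19, 7.57 and 8.90. The arrays ranked alike in both lines, and the pair differences were -3.37 to -2.47. Dlk1 fell by 3.05 (8.26-fold, SE 0.27, adjusted p = 0.00929).

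Grb10, an adaptor that damps insulin and IGF receptor signalling, fell by 1.23, from 11.05, 10.10 and 11.32 to 9.64, 9.31 and 9.84 (SE 0.17, adjusted p = 0.0252), with -0.27 and -0.21 at dimmer probe sets. With Dcn, which is on the list too, 4 of 31 imprinted genes were called, all lower, or 12.9%, against 0.686% of all genes. The list's median was -0.23, and 16 members were lower in all 3 pairs and 2 higher, against 19.6% and 18.0% of all genes. The growth factor Igf2 and the noncoding RNA Meg3 differed by -2.30 (adjusted p = 0.13) and -2.18 (adjusted p = 0.268), while Mest and Usp29, both dim in the 2 lines, each differed by -0.05. Without NIH 3T3 replicate 2 or SV5-NN4 replicate 2 the calls of Ndn, Dlk1 and Grb10 were lost, with adjusted p up to 0.0543, 0.0838 and 0.18. The Dlk1 call was also lost without SV5-NN4 replicate 3, and that of Grb10 without 7 of the 9 arrays.

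Several further large falls concerned the cytoskeleton and retinoid binding. Tuba4a, an alpha-tubulin, read 9.83, 10.46 and 10.34 in NIH 3T3 and 6.44, 6.63 and 5.85 in SV5-NN4, and fell by 3.90 (14.9-fold, SE 0.22, adjusted p = 0.00178). Its other probe sets differed by -1.29 and -0.14 and were not called. Tubb2b, a beta-tubulin best known from neurons, read 7.76, 8.68 and 9.14 against 5.76, 6.46 and 6.14, and fell by 2.41 (SE 0.26, adjusted p = 0.0145). In contrast Tubg1, the gamma-tubulin that nucleates microtubules at centrosomes, rose by 1.40, from 5.93, 5.75 and 6.40 to 6.89, 7.36 and 8.02 (SE 0.19, adjusted p = 0.028). So of 14 tubulins 2 fell (14.3%, against 0.686% of all genes), 1 rose (7.14%, against 1.27%) and 11 were not called. Tubulin genes are close in sequence, and how far their probes cross-react was not tested. Crabp1, which binds retinoic acid in the cytoplasm, read 7.52, 7.49 and 8.97 against 4.64, 4.74 and 4.35. It fell by 3.42 (10.7-fold, SE 0.34, adjusted p = 0.0112). Crabp1 was the 1 called member of 18 genes of retinoid binding and response (5.56%, against 0.686% of all genes called lower). Its relative Crabp2 differed by -0.27 (adjusted p = 0.349). The Tuba4a call was kept whichever array was left out. Those of Tubb2b, Tubg1 and Crabp1 were lost at least without replicate 2 of NIH 3T3 or of SV5-NN4, with adjusted p up to 0.131, 0.188 and 0.0727.

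Fibroblast markers were checked as the labelled cell type. In NIH 3T3 some of the markers were high, with 12.60 ± 0.11 (log2 mean ± SD, n = 3) for vimentin (Vim), 12.73 ± 1.07 for Col1a2 and 12.71 ± 0.57 for S100a4. On the SV5-NN4 arrays they read 12.57 ± 0.14, 12.56 ± 0.89 and 12.74 ± 0.60. Against that, 5 of 15 measured markers fell (Cdh11, Dcn, Postn, Thy1 and Pdgfra; 33.3%, against 0.686% of all genes) and 0 rose, with a median of -0.79 and 14 of 15 below 0. The summed intensity of the 15 was 31986 to 48091 on the NIH 3T3 arrays and 23720 to 33173 on those of SV5-NN4, ranges that overlap. The count of markers called was 8 without NIH 3T3 replicate 1, and 2 without NIH 3T3 replicate 2 or 3 or any SV5-NN4 array. Among the markers of other cell types, 0 of 69 measured genes on 7 lists was called by limma (4 at an unadjusted p under 0.05), and the list medians were -0.17 to -0.04 (the epithelial and skeletal muscle medians were 0.02 and 0.04 after quantile normalization). Summed intensities overlapped between the lines on every such list; epithelial markers, for example, summed to 381 to 580 in NIH 3T3 and 317 to 527 in SV5-NN4. In these bulk RNA samples, fewer cells that express a gene and less RNA per cell cannot be told apart.

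**Figure D3:**
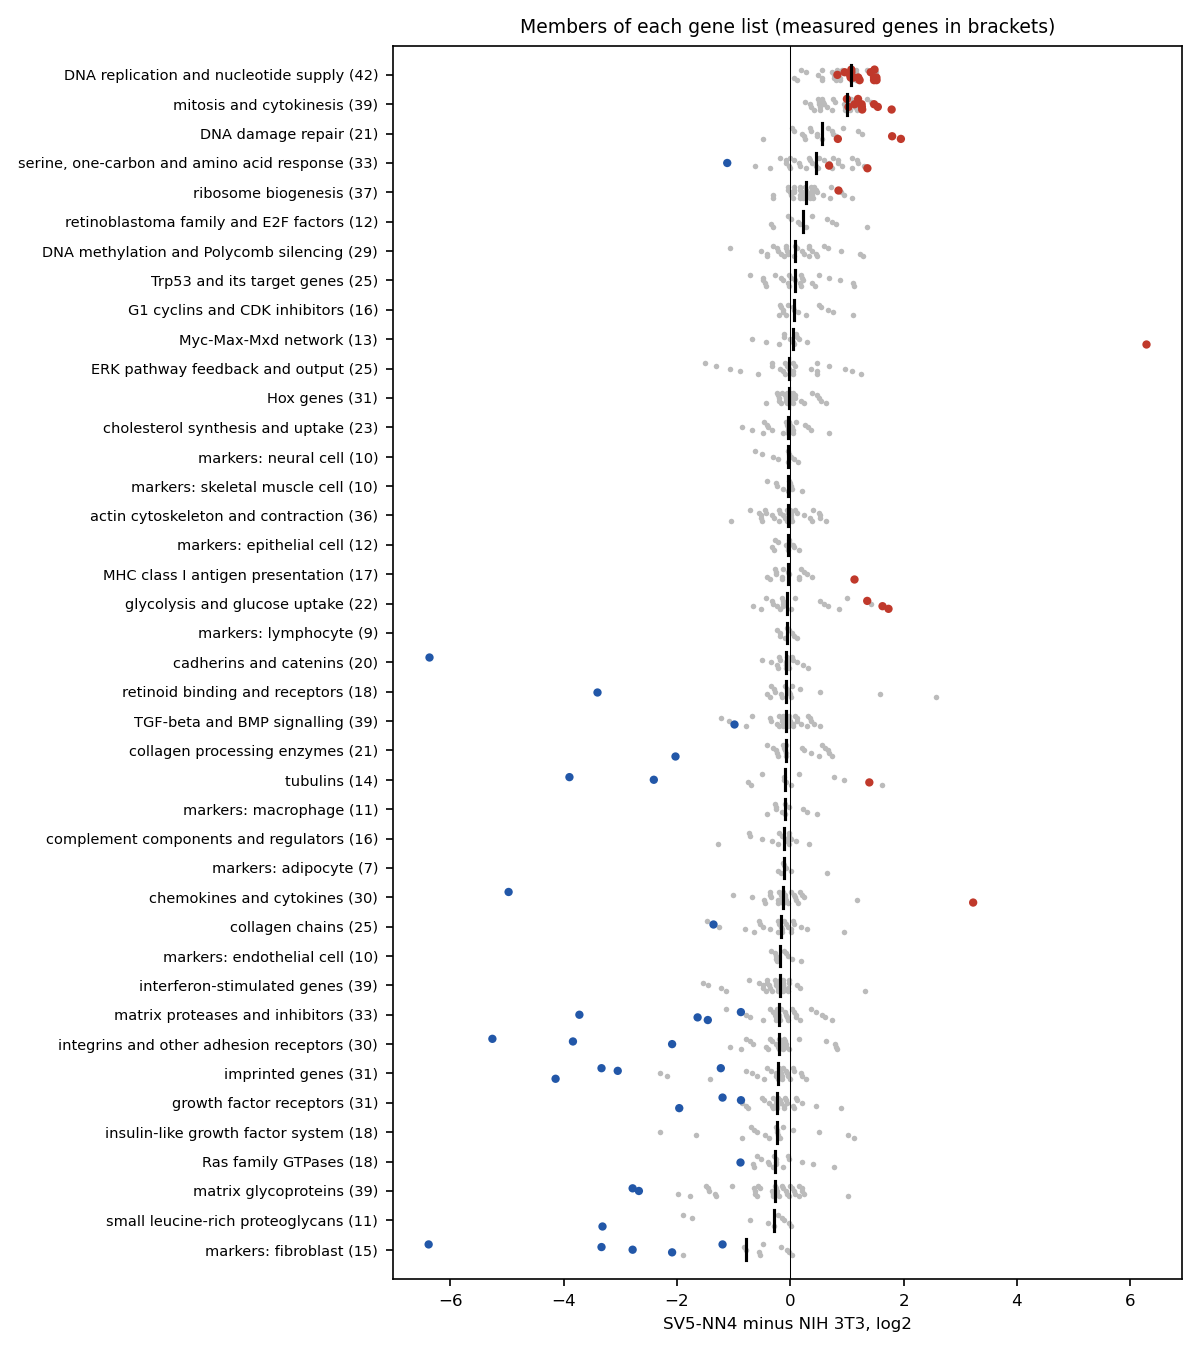
Log2 difference, SV5-NN4 minus NIH 3T3, of each measured member of the 41 gene lists, ordered by list median (black bar); red and blue points are members called higher and lower, grey points were not called. DNA replication and mitosis stand at the top with medians of 1.07 and 1.0, 20 lists have 1 to 4 coloured points and 18 have none, and the fibroblast markers stand lowest at -0.79.

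Mycn had the largest rise. It encodes N-Myc, a transcription factor of the Myc family that promotes growth and division and is best known from embryonic and neural tissue. It read 6.27, 7.04 and 6.12 in NIH 3T3 and 12.84, 12.21 and 13.23 in SV5-NN4, and rose by 6.28 (77.8-fold, SE 0.41, adjusted p = 0.00188). The SV5 arrays were already at 11.82, 11.09 and 12.57; SV5 exceeded NIH 3T3 by 5.35 (adjusted p = 0.0481), and SV5-NN4 exceeded SV5 by 0.93 (adjusted p = 0.399). The other 2 Mycn probe sets were dim in all lines and differed by -0.39 and 0.24 between SV5-NN4 and NIH 3T3, so the rise rests on 1 probe set. Mycn was the only call among 13 genes of the Myc, Max and Mxd network (7.69%, against 1.27% of all genes called higher). Myc itself differed by 0.05 (adjusted p = 0.963).

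Genes of DNA replication and nucleotide supply were the group with the most calls. Of 42 measured, 15 rose (35.7%, against 1.27% of all genes), 0 fell, and all 42 lay above 0, with a median of 1.07. They covered helicase loading and activation (Cdt1, Mcm3, Mcm7, Mcm10, Cdc45, Gins1), the polymerases (Pola1, Pole, Pold2), single-strand binding (Rpa1, Rpa2), chromatin assembly behind the fork (Asf1b, Chaf1b) and deoxynucleotide synthesis (Rrm1, Tk1). Their rises ran from 0.83 for Mcm10 to 1.52 for Mcm3. Members with differences as large but not called included the sliding clamp Pcna, at 1.44 (adjusted p = 0.148), and Mcm5, at 1.52 (adjusted p = 0.0626).

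Mcm3, a subunit of the replicative helicase, read 7.46, 6.04 and 7.90 in NIH 3T3 and 8.39, 8.0 and 9.58 in SV5-NN4. It rose by 1.52 (2.87-fold, SE 0.23, adjusted p = 0.0364), and its other 4 probe sets differed by 0.31 to 1.21. The gap was narrowest in replicate 1 and widest in replicate 2, where the NIH 3T3 array was the lowest of its line. Rrm1, the large subunit of ribonucleotide reductase, read 8.21, 6.13 and 8.06 against 8.99, 8.36 and 9.60, and rose by 1.52 (SE 0.26, adjusted p = 0.0456), with 0.11 at its other probe set. Gins1, part of the active helicase, read 6.76, 5.40 and 6.08 against 8.05, 6.78 and 7.86, and rose by 1.49 (SE 0.14, adjusted p = 0.0101). Tk1, the thymidine kinase of dividing cells, read 8.45, 7.59 and 7.73 against 9.09, 9.31 and 9.80, and rose by 1.48 (SE 0.26, adjusted p = 0.0461). None of the 4 overlapped between the lines.

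Genes of mitosis and cytokinesis showed the same lean: 10 of 39 rose (25.6%, against 1.27% of all genes) and 0 fell. All 39 lay above 0, with a median of 0.999. Ube2c, the ubiquitin-conjugating enzyme that works with the anaphase-promoting complex, read 7.99, 6.06 and 7.13 in NIH 3T3 and 9.06, 8.24 and 9.25 in SV5-NN4. It rose by 1.79 (3.45-fold, SE 0.22, adjusted p = 0.0221). Top2a, the topoisomerase that untangles sister chromatids, read 9.22, 7.41 and 8.61 against 9.80, 9.64 and 10.43, and rose by 1.54 (SE 0.28, adjusted p = 0.0498), with -0.04 at its other probe set. Aurka, a kinase of the spindle poles, read 6.49, 5.66 and 6.78 against 7.74, 7.12 and 8.51, and rose by 1.48 (SE 0.15, adjusted p = 0.0112). Bub1b, of the spindle checkpoint, rose by 1.27 (adjusted p = 0.0316) with pair differences of 1.21 to 1.31. The others called were Ccnb2, Ncaph, Birc5, Cdca5, Tpx2 and Plk1, by 1.0 to 1.26. The proliferation marker Mki67 differed by 1.36 (adjusted p = 0.0546).

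The first pair of arrays showed less of this than the others. The median difference of the replication genes was 0.56 in replicate 1, 1.23 in replicate 2 and 1.28 in replicate 3, and that of the mitosis genes 0.25, 1.31 and 1.16. In all 3 pairs 33 of 42 and 27 of 39 members were higher, against 18.0% of all genes, and 21 and 11 did not overlap between the lines, against 7.11%. The number called was 32 and 27 without NIH 3T3 replicate 1, 3 and 2 without NIH 3T3 replicate 3, 2 and 3 without SV5-NN4 replicate 1, and 0 and 0 without NIH 3T3 replicate 2, SV5-NN4 replicate 2 or SV5-NN4 replicate 3. Without SV5 replicates 1, 2 and 3 it was 3, 4 and 7 for replication and 3, 1 and 3 for mitosis. The medians stayed between 0.89 and 1.25 for replication and between 0.73 and 1.25 for mitosis whichever array was left out. With no replicate block, 0 members of either list were called. The share of dividing cells was not measured, and the density of the cultures at harvest is not stated in the labels.

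**Figure D4:**
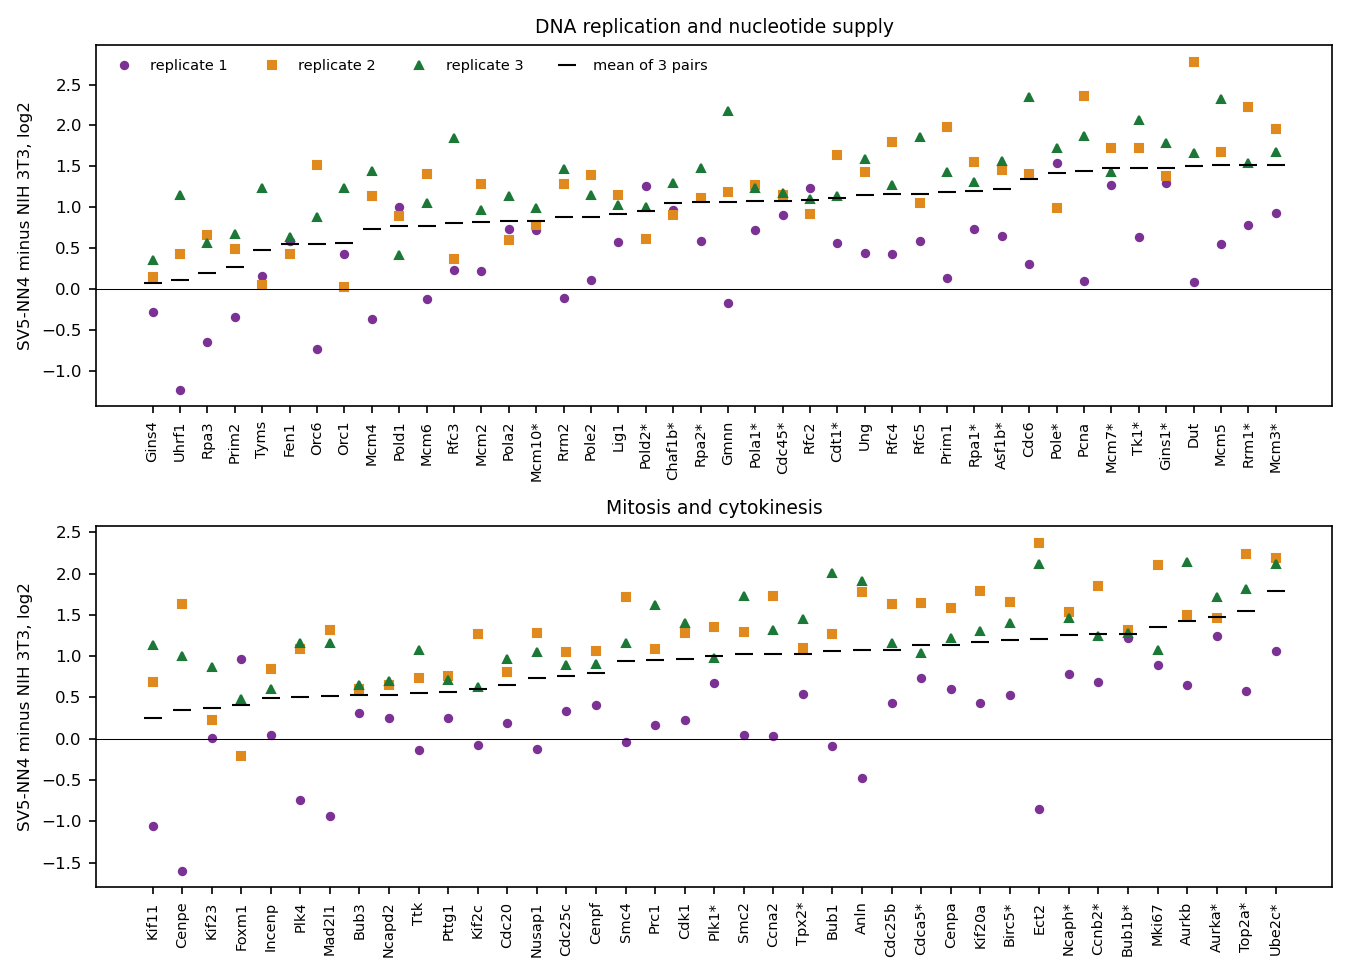
Log2 difference, SV5-NN4 minus NIH 3T3, on the vertical axis, for each measured gene of DNA replication and nucleotide supply (top, 42 genes) and of mitosis and cytokinesis (bottom, 39 genes), with 1 symbol per pair of equal-numbered arrays and a bar for the mean; an asterisk marks called genes. All bars lie above 0, and most of the symbols below 0 belong to replicate 1.

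Promoters of 3 called members are shown because the members of the replication and mitosis lists lie on the same side of 0 while their textbook elements differ. Replication genes are known for E2F sites, and mitosis genes for the CHR element, bound by the DREAM complex, with CCAAT boxes, bound by NF-Y. The sequences are RefSeq's for GRCm38.p6, 250 bases that end at the transcription start, 5' to 3' on the gene's strand; capitals mark CCAAT and TTTGAA on either strand.
Ube2c, chr2:164769679-164769928, plus strand: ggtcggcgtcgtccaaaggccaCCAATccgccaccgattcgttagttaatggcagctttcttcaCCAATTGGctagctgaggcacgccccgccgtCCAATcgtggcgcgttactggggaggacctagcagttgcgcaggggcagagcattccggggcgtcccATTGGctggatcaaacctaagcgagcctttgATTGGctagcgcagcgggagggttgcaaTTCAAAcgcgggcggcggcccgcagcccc
Top2a, chr11:99024190-99024439, minus strand: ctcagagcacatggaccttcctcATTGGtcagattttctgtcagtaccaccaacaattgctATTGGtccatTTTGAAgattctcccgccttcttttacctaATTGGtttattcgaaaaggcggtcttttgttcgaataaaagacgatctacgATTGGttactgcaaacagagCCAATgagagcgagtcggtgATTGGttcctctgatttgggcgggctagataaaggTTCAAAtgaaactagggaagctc
Mcm3, chr1:20820313-20820562, minus strand: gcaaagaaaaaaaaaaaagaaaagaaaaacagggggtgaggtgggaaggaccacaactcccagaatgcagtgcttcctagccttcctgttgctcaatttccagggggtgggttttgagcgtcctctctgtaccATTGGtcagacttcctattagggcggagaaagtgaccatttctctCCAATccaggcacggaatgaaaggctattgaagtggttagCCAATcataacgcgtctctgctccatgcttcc
Ube2c held 6 CCAAT matches, of which 2 on opposite strands overlap, and 1 TTTGAA whose first base lies 29 bases before the start. Top2a held 6 CCAAT matches and 2 TTTGAA, the nearer at 23 bases before the start. Mcm3 held 3 CCAAT matches, and its E2F letters TTTCCCGC and TTTGGCGC lie 20 and 39 bases after the start, in the 50 transcribed bases that were searched and are not printed.

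Over the whole window of 300 bases, E2F letters (TTTCCCGC, TTTGGCGC, TTTCGCGC or TTTGCCGC, both strands) were present in 31.7% of 41 promoters of 35 replication genes, 5.88% of 34 promoters of 31 mitosis genes and 2.26% of all 32851 promoters. TTTGAA was present in 12.2%, 73.5% and 17.9%, and CCAAT in 56.1%, 73.5% and 37.4%. E2F letters were thus most frequent in replication promoters and TTTGAA in mitosis promoters. A match describes the letters and not a bound site.

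The retinoblastoma proteins, which T antigen binds, and the E2F factors gave no limma call among 12 members (4 higher and 0 lower at an unadjusted p under 0.05), with a median of 0.23; E2f1 differed by 0.80 (adjusted p = 0.124) and the pocket protein Rbl1 by 1.35 (adjusted p = 0.24). Of 16 G1 cyclins and CDK inhibitors 0 were called (4 higher and 0 lower unadjusted), with a median of 0.06 and 0.75 for cyclin E1, Ccne1 (adjusted p = 0.137). Of 25 genes of p53 and its targets 0 were called (5 higher and 3 lower unadjusted), with a median of 0.07. The CDK inhibitor Cdkn1a, a main p53 target, read 8.64, 9.19 and 8.90 in NIH 3T3 and 10.09, 10.29 and 9.69 in SV5-NN4. Its arrays did not overlap, and the difference of 1.11 (95% interval 0.52 to 1.70) did not pass the threshold (adjusted p = 0.085).

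Most DNA repair genes lay above 0. Of 21 measured, 3 rose (14.3%, against 1.27% of all genes) and 0 fell, with a median of 0.56; 14 were higher in all 3 pairs, against 18.0% of all genes. Msh6, of the mismatch recognition dimer, read 6.98, 5.08 and 7.74 in NIH 3T3 and 8.36, 7.61 and 9.70 in SV5-NN4, and rose by 1.95 (SE 0.31, adjusted p = 0.0385). Brca1, which acts in homologous recombination, read 6.17, 4.66 and 6.04 against 7.35, 6.79 and 8.12, and rose by 1.80 (SE 0.23, adjusted p = 0.0234), while its 3 dimmer probe sets differed by -0.12 to 0.21. Rad50, of the complex that senses broken ends, rose by 0.84 (adjusted p = 0.0401), but its other probe set differed by -0.26, and the mean of both, 0.29, was not called. Replicate 2 of NIH 3T3 was the lowest array for each of them, and the calls were lost at least without it or any SV5-NN4 array (adjusted p up to 0.221). Spag5, a spindle protein outside these lists, read 6.58, 4.90 and 5.66 against 8.07, 7.03 and 7.85, and rose by 1.93 (3.82-fold, SE 0.19, adjusted p = 0.012). Its other probe sets differed by 0.03 to 1.31 and were not called, and the call was lost without NIH 3T3 replicate 2 or SV5-NN4 replicate 2 or 3 (adjusted p up to 0.115).

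Metabolic enzymes were higher at a few steps. In glycolysis Eno3, an enolase isoform best known from muscle, read 6.42, 5.96 and 7.52 in NIH 3T3 and 8.07, 8.02 and 9.02 in SV5-NN4, and rose by 1.73 (SE 0.17, adjusted p = 0.0112). Pkm, the pyruvate kinase of dividing cells and muscle, read 9.17, 8.77 and 10.43 against 11.19, 10.36 and 11.70, and rose by 1.63 (SE 0.19, adjusted p = 0.0182). Pfkp, the platelet form of phosphofructokinase, rose by 1.36 (adjusted p = 0.039), with -0.06 at a dimmer probe set. The SV5-NN4 array was higher in every pair, but the replicates of both lines shared a spread, so that Pkm levels overlapped between the lines. Of 22 genes of glycolysis and glucose uptake these 3 rose (13.6%, against 1.27% of all genes) and 0 fell. The median was -0.06, but 0.52 over the brighter probe sets alone and 0.16 with the mean of each gene's probe sets. The list as a whole therefore has no settled direction. The glucose transporter Slc2a1 differed by -0.32 (adjusted p = 0.482) and Ldha by 0.86 (adjusted p = 0.104). Taldo1, the transaldolase of the pentose phosphate pathway, read 8.04, 6.41 and 8.45 against 9.56, 8.52 and 9.74, and rose by 1.64 (SE 0.21, adjusted p = 0.0221). All 4 calls were lost at least without NIH 3T3 replicate 2 or any SV5-NN4 array (adjusted p up to 0.217).

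Among 33 genes of serine, one-carbon and amino acid response, Psph, the last enzyme of serine synthesis, rose by 1.36 (adjusted p = 0.0489), and Wars, the tryptophanyl-tRNA synthetase, by 0.68 (adjusted p = 0.049). The stress factor Atf3 fell by 1.11 (adjusted p = 0.0401), from 6.07, 5.68 and 4.91 to 4.70, 4.45 and 4.17, 1 SV5-NN4 array lying inside the control range. So 6.06% of the list was called higher and 3.03% lower, against 1.27% and 0.686% of all genes. The median was 0.45, and 18 members were higher in all 3 pairs and 3 lower, against 18.0% and 19.6% of all genes. Of 37 ribosome biogenesis genes 1 was called (2.70%, against 1.27% of all genes called higher). This was Tsr1, a factor of small subunit maturation, which rose by 0.83 (limma, adjusted p = 0.0444). The median was 0.29, with 19 higher in all 3 pairs and 2 lower, against 18.0% and 19.6% of all genes. The calls of Psph, Wars and Tsr1 were each lost without 8 of the 9 arrays, and that of Atf3 without 7 (adjusted p up to 0.253). NIH 3T3 replicate 2 and every SV5-NN4 array were among these. Wars also lost its call in 7 of 8 other settings.

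Other large rises had no list in common. Msln, which encodes mesothelin, a surface glycoprotein of mesothelial cells and several tumours, read 6.05, 4.44 and 4.25 in NIH 3T3 and 8.73, 6.32 and 7.96 in SV5-NN4. It rose by 2.76 (6.76-fold, SE 0.33, adjusted p = 0.0196), and the lowest SV5-NN4 array was only slightly above the highest NIH 3T3 array. Metrn, the secreted glial factor meteorin, read 8.48, 7.83 and 8.45 against 10.17, 9.38 and 10.08, and rose by 1.62 (SE 0.16, adjusted p = 0.011), with -0.07 at a dimmer probe set. Hspa4l, a heat shock protein of the Hsp110 family, read 7.79, 6.75 and 8.52 against 9.21, 8.24 and 10.45, and rose by 1.61 (SE 0.19, adjusted p = 0.0184), with 1.76 at its other probe set, which was called too. H2-D1, a class I histocompatibility heavy chain, rose by 1.12 (adjusted p = 0.0234), from 8.31, 8.02 and 9.79 to 9.60, 9.29 and 10.60. Its 9 probe sets differed by -0.41 to 1.12 with 3 called, and the class I genes are near-identical copies. No other of 17 antigen presentation genes was called (5.88% higher with H2-D1, against 1.27% of all genes). Which gene gave this signal is therefore uncertain. Without NIH 3T3 replicate 2 or any array of SV5-NN4, the calls of Msln, Metrn, Hspa4l and H2-D1 were lost (adjusted p up to 0.151).

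Of the Ras family and ERK genes 1 was called. Of 18 Ras family GTPases, Rasl11b, an atypical member, fell by 0.89 (adjusted p = 0.0488), from 6.64, 7.13 and 6.96 to 6.17, 6.06 and 5.82. That is 5.56% called lower, against 0.686% of all genes, while 0 rose, and the median was -0.27. The Rasl11b call was lost without each of 8 of the 9 arrays (adjusted p up to 0.253). Of 25 ERK feedback and output genes 0 were called (4 higher and 5 lower at an unadjusted p under 0.05), with a median of -0.01 (0.05 over the brighter probe sets). The early response genes Egr1 and Fos differed by -1.51 (adjusted p = 0.215) and -1.31 (adjusted p = 0.193), the phosphatase Dusp6 by 0.04 (adjusted p = 0.989) and the AP-1 subunit Fosl1 by 0.97 (adjusted p = 0.113). The intervals of such differences are wide, so calls of 0 do not show that output was the same. With 0 calls, and at an unadjusted p under 0.05 the numbers given as higher and lower, were 36 actin and contraction genes (5 and 7, median -0.04; Acta2 -1.04, adjusted p = 0.104), 18 genes of the insulin-like growth factor system (2 and 5, median -0.24), 39 interferon-stimulated genes (1 and 8, -0.19; Ifit2 1.31, adjusted p = 0.166), 16 complement genes (0 and 2, -0.12; C1s1 -1.28, adjusted p = 0.0504), 23 cholesterol genes (0 and 3, -0.04), 31 Hox genes (4 and 1, -0.02, and 0.05 after quantile normalization) and 29 genes of DNA methylation and Polycomb silencing (5 and 1, 0.08).

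The SV5 arrays were set beside these differences; the comparisons share arrays and are not independent. SV5 against NIH 3T3 gave 6 called genes (0.0484%), and SV5-NN4 against SV5 gave 130 (1.05%). Of the 85 genes lower in SV5-NN4 than in NIH 3T3, 1 was called between SV5 and NIH 3T3 and 39 between SV5-NN4 and SV5; the SV5 mean lay closer to NIH 3T3 than to SV5-NN4 in 67 and between the other lines in 52. Of the 158 higher genes, 1 was called at the first step, 31 at the second and 126 at neither, and the SV5 mean lay closer to NIH 3T3 in 105 and between the other lines in 138. Cdh11 was 0.46 above NIH 3T3 in SV5 (adjusted p = 0.635), Cd24a 0.34 above (adjusted p = 0.604) and Ndn 0.11 below (adjusted p = 0.898). Tuba4a fell by 2.61 in SV5 (adjusted p = 0.0481) and differed by a further -1.29 in SV5-NN4 (adjusted p = 0.0565). Pdgfra, Col6a3 and Dlk1 read 0.91, 1.40 and 1.32 higher in SV5 than in NIH 3T3, not called (adjusted p from 0.113 to 0.131), and were 2.10, 2.77 and 4.37 lower in SV5-NN4 than in SV5. The replication genes had medians of 0.10 for SV5 minus NIH 3T3 and 0.90 for SV5-NN4 minus SV5.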

How the data were processed

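RNA from 3 lines was measured on 9 arrays, 3 per line, grouped by the labels. The authors deposited 1 intensity per probe set on a linear scale; RMA, which usually corrects background, normalizes by quantiles and summarises probes, is named in the submitters' processing notes with no version or settings, and whether all arrays were processed together is not stated. Intensities were taken as log2(intensity + 1) and fitted with limma 3.58.1 in R 4.3.3 (lmFit and eBayes) over all 9 arrays, with a mean per line and the replicate number as a fixed block. P-values were adjusted by Benjamini-Hochberg over 22690 probe sets, and an adjusted p under 0.05 was a call. The fit was also run on data simulated from the fitted model itself, with replicate effects built in. Such data cannot test whether the replicate block is right.

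The labels give replicate numbers but not what they mark. Deviations from the line means correlated at 0.33 to 0.80 in the 3 equal-numbered pairs of SV5-NN4 and NIH 3T3, so the numbers were taken to pair the arrays. The 6 other pairs were at -0.73 to 0.07. Deviations within a line sum to 0, so these lower values follow largely from the positive ones and are no separate support.

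A gene stood for its probe set with 1 symbol and the highest mean over the arrays; 691 probe sets carried several symbols and 1606 none, and these name no gene. RefSeq's table held the gene IDs of 20351 probe sets with 1 symbol, and 0 symbols differed. Of 1093 entries on 41 gene lists, 8 of them cell type markers, 938 were measured. Named were Nras, Dcn, the 12 largest called rises and falls among genes that reach the median probe set level, and up to 4 called members per list, or up to 2 uncalled ones; others named were chosen after their values were seen. The members and lists were chosen with earlier results of these data known. Promoters came from RefSeq's GRCm38.p6 table and hold 250 bases before and 50 after a start.

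Alternatives were no block, the arrays of the 2 lines alone, a pseudocount of 16, brighter probe sets, median centring, quantile normalization, an intensity trend, averaging all probe sets of a gene, and leaving out each array. With 3 arrays per line, their number limits the precision.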

Additional observations from a re-analysis of the deposited data

How the results depend on the processing

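With no replicate block, 18 probe sets were called (2 higher, 16 lower), with 0 replication genes, 0 mitosis genes and 2 fibroblast markers among them. Fitted on the arrays of the 2 lines alone, with the replicate block, the counts were again 18, 2 and 16, and 0, 0 and 2. A pseudocount of 16 left 5 mitosis genes and 262 probe sets called (175 and 87). The other settings gave 446 (309 and 137) over the brighter probe sets, 328 (239 and 89) after median centring, 325 (180 and 145) after quantile normalization and 291 (184 and 107) with an intensity trend. The share called higher was 68.8% at first, 55.4% after quantile normalization and 11.1% with no block. With single arrays left out, the counts ran from 13 to 1239 probe sets called, 2 to 861 higher and 11 to 378 lower, 0 to 32 for replication, 0 to 27 for mitosis and 2 to 8 for fibroblast markers. No difference called in the fit reported above changed sign under any setting that tested it, 344 of the 375 being tested among the brighter probe sets. With no block, on the 2 lines alone, over the brighter probe sets, with the trend or without an SV5 array, the difference itself is unchanged. In those settings the sign was fixed in advance. Of the 54 named calls, 44 were lost with no block, 46 on the 2 lines alone, 17 with the larger pseudocount, 10 after quantile normalization, 9 after centring, 8 when all probe sets of a gene were averaged (Pdgfra, Mmp14, Wars, Rad50, H2-D1, Rrm1, Top2a and Brca1), 4 with the trend and 1 among brighter probe sets; Cdh11, Cd24a, Ndn, Tuba4a, Scara3, Thy1 and Mycn kept the call in each of these. List medians near 0 changed sign for the Myc network (-0.01 after quantile normalization), the ERK genes (0.05 over brighter probe sets), class I presentation (0.15 over brighter probe sets) and the macrophage and adipocyte markers (0.29 and 0.26 there). No value exists for a list with no brighter member. The cause of these changes was not tested. Levels within 3.18 to 4.25 have no order, which limits the size of falls to such levels.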

Other observations

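Further gene families were looked at after their values were seen, so their counts are descriptions, to be read against the 1.27% of all genes called higher and the 0.686% called lower. In the protocadherin beta cluster, a row of neural adhesion genes, 3 of 22 measured members were called lower and 0 higher, with a median of -0.09. Pcdhb9 read 5.92, 6.29 and 6.46 in NIH 3T3 and 3.73, 4.20 and 4.15 in SV5-NN4, inside the control range, and was at least 3.95-fold lower (limma adjusted p = 0.00572). Pcdhb7 fell by 2.16 (adjusted p = 0.0488) and Pcdhb20 by 1.55 (adjusted p = 0.011). No SV5-NN4 array of these 3 genes reached an NIH 3T3 array.

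Of 85 genes of the respiratory chain and ATP synthase, 5 were called higher (Cox8a, Sdhb, Uqcrq, Atp5g1 and Atp5b) and 0 lower, with 65 above 0 and a median of 0.32. Cox8a, a subunit of cytochrome oxidase, read 10.04, 10.52 and 10.57 against 11.18, 11.50 and 11.47 and rose by 1.0 (adjusted p = 0.0252). All 16 cytosolic aminoacyl-tRNA synthetases lay above 0 (median 0.58), with Wars, Iars and Vars called. Of 38 proteasome subunits 3 were called higher (Psmd13, Psmd5 and Psmb7), with 30 above 0 and a median of 0.45. Of 18 glutathione and pentose phosphate enzymes 4 rose, Srxn1, Gsta4, Gclc and Taldo1, with a median of 0.46. Gclc, which makes the first step of glutathione synthesis, read 7.96, 7.69 and 6.78 against 9.66, 8.97 and 8.58 and rose by 1.59 (adjusted p = 0.0415).

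The Y-linked demethylase Kdm5d read 5.10, 6.47 and 6.82 in NIH 3T3 and 4.04, 4.14 and 3.40 in SV5-NN4 inside the control range, and was at least 3.69-fold lower (limma adjusted p = 0.0436). Its other probe sets differed by -0.27 and -0.07 and were not called. In SV5 Kdm5d already read 4.23, 4.68 and 4.32. Of 6 measured single-copy Y-linked genes it was the 1 called. Eif2s3y, also Y-linked, read 4.04, 4.32 and 7.16 against 3.36, 3.56 and 3.70; NIH 3T3 replicate 3 stood apart, and the difference was not called (adjusted p = 0.21). Of the chromosomes with 15 or more called genes, chromosome 11 had 27 higher and 1 lower of 1041, chromosome 2 had 24 and 3 of 965, chromosome 5 had 14 and 3 of 772, chromosome 7 had 11 and 5 of 958, chromosome 17 had 14 and 1 of 596, chromosome 8 had 6 and 10 of 645 and chromosome 10 had 5 and 11 of 560. Over all genes 1.27% were called higher and 0.686% lower, and chromosome 7 lay below both shares. A choice by the count of calls favours chromosomes with many genes.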
